A study of Mus musculus with 14 samples.

Results

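The genes described here code for 5 families of enzymes that handle peroxides, superoxide and reactive small molecules: the cytosolic glutathione S-transferases (Gst), the glutathione peroxidases (Gpx), the peroxiredoxins (Prdx), the superoxide dismutases (Sod) and catalase (Cat). They were chosen by symbol alone, from names that start with Gsta, Gstm, Gstp, Gstt, Gsto, Gstz, Gstk, Gpx, Prdx or Sod and end in a number, and Cat. The gene table held 40 such symbols, of which 37 had a probe on the array, among 17178 genes with a named probe in all. Of these, 35 genes were tested, among 14468 genes, and each of the 35 stood well above background on all 14 arrays. Gpx6 and Gstt4 were not tested, since the Gpx6 probe stood well above background on 0 arrays and the better Gstt4 probe on 1. No probe was matched to Gstk1, Gpx5 or Gstp2.

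Lung RNA of male C57BL/6N mice was hybridized to one-colour arrays, 1 array for each lung, 6 months after an instillation into the trachea. VCF mice (4 arrays) had received 200 µg of carbon fibre as it was before recycling. CCF mice (3 arrays) had received 200 µg of the fibre after carbonization, RCF mice (4 arrays) 200 µg after firing, and Ctrl mice (3 arrays) the phosphate-buffered saline vehicle. The samples are independent animals according to the design text, and the ages of the animals are not given in the sources used here. A level below is the log2 intensity of a probe minus the 75th percentile of its array, and a difference is the first-named group's mean minus the second's, both in log2 units. The standard error (SE), the 95% interval and the p-value come from limma, with all groups in 1 fit. An adjusted p covers all 29271 probes tested and was called under 0.05, and a p not so named is unadjusted. Lung identity was seen in the alveolar type 2 and type 1 markers: all 8 type 2 and the 5 of 6 type 1 genes tested stood well above background on each array. Rtkn2 was the type 1 marker not tested, and testing itself required at least 3 such arrays.

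Glutathione S-transferases join the thiol of glutathione to reactive small molecules, and the alpha class is also known for reducing lipid hydroperoxides. Superoxide dismutases turn superoxide into hydrogen peroxide, which catalase, glutathione peroxidases and peroxiredoxins then reduce. Peroxiredoxins do so with reactive cysteines recharged mainly by thioredoxin. In the lung these enzymes are known from airway and alveolar epithelium and from macrophages. Many of their genes are known targets of the transcription factor Nrf2 (Nfe2l2), which binds the antioxidant response element.

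Promoter windows are shown for Gsta1 and Gsta2, which had the lowest differences over all fibres, to show what the pair shares. They are also shown for Gsta3 and Prdx1, which had p under 0.05 in CCF lungs and whose windows hold the core of the antioxidant response element. Each window runs from 250 bases before to 50 bases after the start of transcription, from RefSeq on GRCm38.p6, which is not the assembly of the array design. Gsta1 lies at chr9:78230419-78230718 on the plus strand and Gsta2 at chr9:78347096-78347395 on the minus strand. Gsta3 lies at chr1:21240335-21240634 and Prdx1 at chr4:116685349-116685648, both on the plus strand. Capitals mark the longest run that the windows of Gsta1 and Gsta2 share, and in Gsta3 and Prdx1 the match to the core.
Gsta1: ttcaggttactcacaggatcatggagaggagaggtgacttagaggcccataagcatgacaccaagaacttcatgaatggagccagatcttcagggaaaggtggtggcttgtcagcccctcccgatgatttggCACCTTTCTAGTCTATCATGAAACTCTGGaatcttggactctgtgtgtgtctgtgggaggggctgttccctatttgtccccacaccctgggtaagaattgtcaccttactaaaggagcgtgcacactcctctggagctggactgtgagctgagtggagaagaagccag
Gsta2: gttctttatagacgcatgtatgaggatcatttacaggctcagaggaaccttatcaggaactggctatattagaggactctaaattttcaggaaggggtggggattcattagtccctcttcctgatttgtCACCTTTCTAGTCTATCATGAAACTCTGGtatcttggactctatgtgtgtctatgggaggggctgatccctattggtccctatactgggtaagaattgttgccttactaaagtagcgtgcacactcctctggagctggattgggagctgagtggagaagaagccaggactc
Gsta3: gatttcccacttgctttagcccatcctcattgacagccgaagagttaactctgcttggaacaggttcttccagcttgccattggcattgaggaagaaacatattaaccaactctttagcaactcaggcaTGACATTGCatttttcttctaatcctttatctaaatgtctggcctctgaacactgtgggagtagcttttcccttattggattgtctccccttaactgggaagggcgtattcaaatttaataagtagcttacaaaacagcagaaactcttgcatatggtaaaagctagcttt
Prdx1: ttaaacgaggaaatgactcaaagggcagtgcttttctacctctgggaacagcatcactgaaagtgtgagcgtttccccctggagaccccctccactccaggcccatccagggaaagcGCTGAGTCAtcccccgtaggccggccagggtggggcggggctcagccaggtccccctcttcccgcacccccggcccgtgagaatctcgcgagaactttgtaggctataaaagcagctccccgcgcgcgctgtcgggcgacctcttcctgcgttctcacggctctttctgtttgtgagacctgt

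In a global alignment the Gsta1 and Gsta2 windows were identical at 232 of 289 aligned bases (80.3%). Their longest shared run has 29 bases and starts at position -118 from the start of transcription in Gsta1 and at -121 in Gsta2. The core was searched as TGACNNNGC on both strands, where N is any base. It was found in the windows of Gsta3 (at position -121), Prdx1 (at -133, on the minus strand), Gstm5, Gstm7 and Sod1. That is 5 of the 36 member genes with a window (13.9%), beside 14% of all 27025 genes with a window. The windows of Gsta1 and Gsta2 did not hold these letters, and sequence outside the windows was not searched. Gsta4, Gstt2, Prdx6 and Sod3 had no window in the table. On the same assembly the 7 Gstm genes are neighbours of each other, as are the 4 Gstt genes, the 3 Gstp genes, the pair Gsto1 and Gsto2, and the pair Gsta4 and Gsta1. Members of 1 class can be close in sequence. Probe sequences were not used here, so how far a probe also reads a related gene was not tested.

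No member passed the adjusted threshold in any of the 7 comparisons, the 3 fibres against Ctrl, all fibres against Ctrl and the 3 pairs of fibres. Over all probes limma called 0.0102% in VCF, 0% in CCF, 0% in RCF and 0.00342% over all fibres against Ctrl and 0% in each pair of fibres, so few genes of any kind passed. The 3 comparisons with a single fibre share the same 3 Ctrl arrays. The SE of a member's difference had a median between 0.13 and 0.16 over the comparisons. The member with the lowest difference was an alpha-class transferase in each comparison with Ctrl, and each of the 4 alpha genes lay lower on average in every fibre group than in Ctrl, also under normexp (a model-based background correction), quantile normalization and the slide as a block. The 7 mu-class genes, Sod1, Sod2 and Cat differed from Ctrl by at most 0.21 in size in any fibre group, and by at most 0.49 under normexp.

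Most members lay slightly lower after fibre. In VCF lungs 23 of 35 lay below Ctrl (65.7%), where 54.2% of all genes did, and their median difference was -0.08 against -0.02 over all genes. In CCF lungs 31 of 35 lay below Ctrl (88.6%), where 58.7% of all genes did, with a median of -0.11 against -0.04 over all genes. In RCF lungs 25 of 35 lay below Ctrl (71.4%), where 50.3% of all genes did, with a median of -0.07 against 0.00 over all genes. With all fibres together 28 of 35 lay below Ctrl (80.0%), where 56% of all genes did, with a median of -0.09 against -0.02 over all genes. Without VCF replicate 3 the VCF median was -0.02, and without Ctrl replicate 3 the RCF median was -0.03. These counts carry no test, since the genes share their arrays and animals. They moved under normexp, which changes both the spot signal and its background. There 29, 21, 23 and 25 members lay lower in the same 4 comparisons. Of all genes 52.1%, 63.1%, 48.9% and 66.1% did. The normexp median in CCF was -0.07 for members and -0.10 over all genes, so there the members lay less low than all genes. The arrays lay on 4 slides. In their deviations from group means, arrays of different groups correlated with a median of 0.12 on the same slide (18 pairs) and of -0.08 on different slides (55 pairs), and 11 of 14 arrays correlated best with an array of their own slide. Slide 4 holds no Ctrl array, so differences from Ctrl within a slide leave out VCF replicate 1, CCF replicate 2 and RCF replicate 2. Within slide 2, which holds no CCF array, the median was 0.03 in VCF and 0.01 in RCF against Ctrl. Within slides 1 and 3 it lay between -0.17 and -0.05 in each comparison of 1 fibre with Ctrl.

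**Figure D1:**
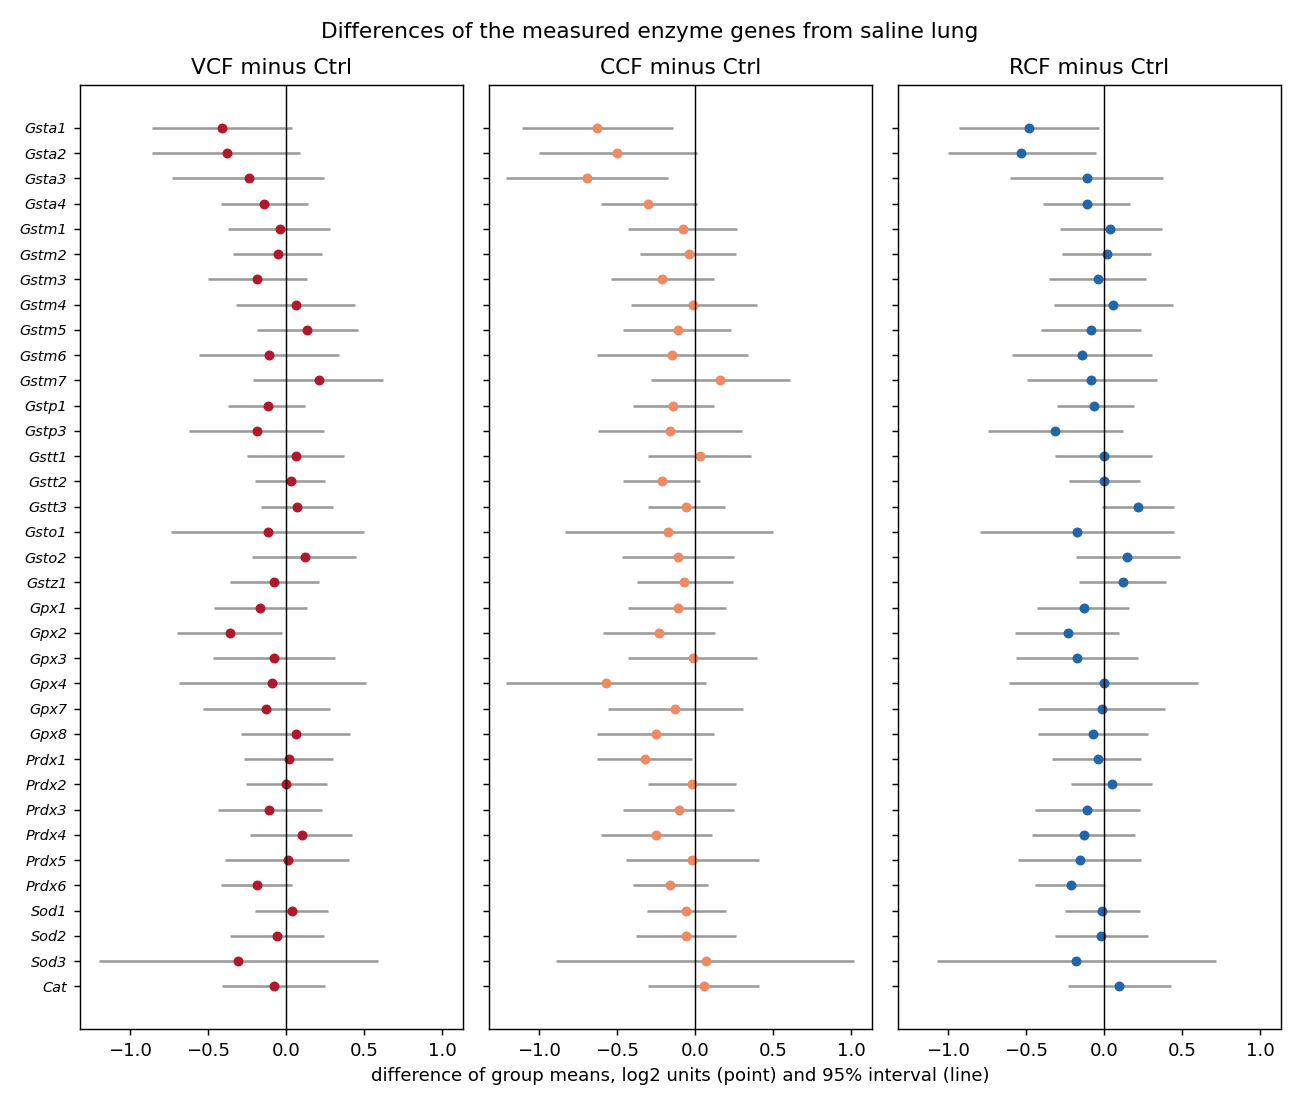
Difference of each of the 35 tested enzyme genes from Ctrl in VCF, CCF and RCF lungs, in log2 units on the horizontal axis, with the point at the difference and the line over its 95% interval. Gsta1 and Gsta2 lie left of 0 in all 3 panels, between -0.63 and -0.38. Most intervals cover 0, among them those of both genes in VCF and of Gsta2 in CCF.

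Gsta1 and Gsta2 code for transferases known to be inducible by antioxidants. Gsta1 had levels of 1.76, 1.07, 1.76 and 1.18 in VCF lungs, 1.23, 1.26 and 1.19 in CCF lungs and 1.61, 1.35, 1.26 and 1.26 in RCF lungs, against 2.15, 1.42 and 1.99 in Ctrl lungs. The 3 CCF arrays lay close together below every Ctrl array, while VCF and RCF arrays overlapped with the lowest Ctrl array. Gsta1 differed from Ctrl by -0.41 in VCF (SE 0.21, 95% interval -0.86 to 0.04), by -0.63 in CCF (SE 0.22, -1.11 to -0.14) and by -0.48 in RCF (SE 0.21, -0.93 to -0.03). Adjusted p-values were 0.67, 0.674 and 0.921 in the same order. Over all fibres the Gsta1 difference was -0.51 (SE 0.18, -0.89 to -0.12, adjusted p = 0.649). The size of these differences depends on the few Ctrl arrays. The Gsta1 difference in VCF was -0.26 when Ctrl replicate 1 was left out, and -0.62 when Ctrl replicate 2 was. The Gsta1 difference over all fibres was -0.36 without Ctrl replicate 1, against -0.72 when Ctrl replicate 2 was left out.

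Gsta2 had levels of 0.67, -0.14, 0.47 and -0.04 in VCF lungs, -0.08, 0.49 and -0.03 in CCF lungs and 0.28, 0.06, -0.10 and 0.14 in RCF lungs, against 0.82, 0.32 and 0.73 in Ctrl lungs. All 4 RCF arrays lay below every Ctrl array, and the other fibre groups overlapped with Ctrl. Gsta2 differed from Ctrl by -0.38 in VCF (SE 0.22, -0.86 to 0.09), by -0.50 in CCF (SE 0.23, -1.0 to 0.01) and by -0.53 in RCF (SE 0.22, -1.0 to -0.05). The adjusted p-values were 0.723, 0.75 and 0.917. Over all fibres the difference was -0.47 (SE 0.19, -0.88 to -0.06, adjusted p = 0.710).

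Within a slide, Gsta1 differed from Ctrl by -0.22, -0.24 and -1.08 in VCF on slides 1, 2 and 3, by -0.79 and -0.92 in CCF on slides 1 and 3, and by -0.38, -0.16 and -0.89 in RCF on slides 1, 2 and 3. Gsta2 likewise differed by -0.26, -0.36 and -0.97 in VCF, by -0.76 and -0.90 in CCF and by -0.45, -0.18 and -0.93 in RCF. Every within-slide difference of both genes from Ctrl was thus below 0, from 1 array a group on each slide. The differences of a gene on a slide all subtract the same Ctrl array, so they are not independent of each other. Slide 3, with the lowest differences, holds Ctrl replicate 1, the highest Ctrl array for both genes. The arrays of slide 4, which holds no Ctrl array, are not among these differences. There Gsta2 stood at 0.67 in VCF, 0.49 in CCF and 0.06 in RCF, and Gsta1 at 1.76, 1.26 and 1.35. Ctrl replicate 2, the lowest Ctrl array, stood at 0.32 for Gsta2 and 1.42 for Gsta1. With the slide as a block the difference over all fibres was -0.58 for Gsta1 (SE 0.16, adjusted p = 0.471) and -0.58 for Gsta2 (SE 0.16, adjusted p = 0.499).

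**Figure D2:**
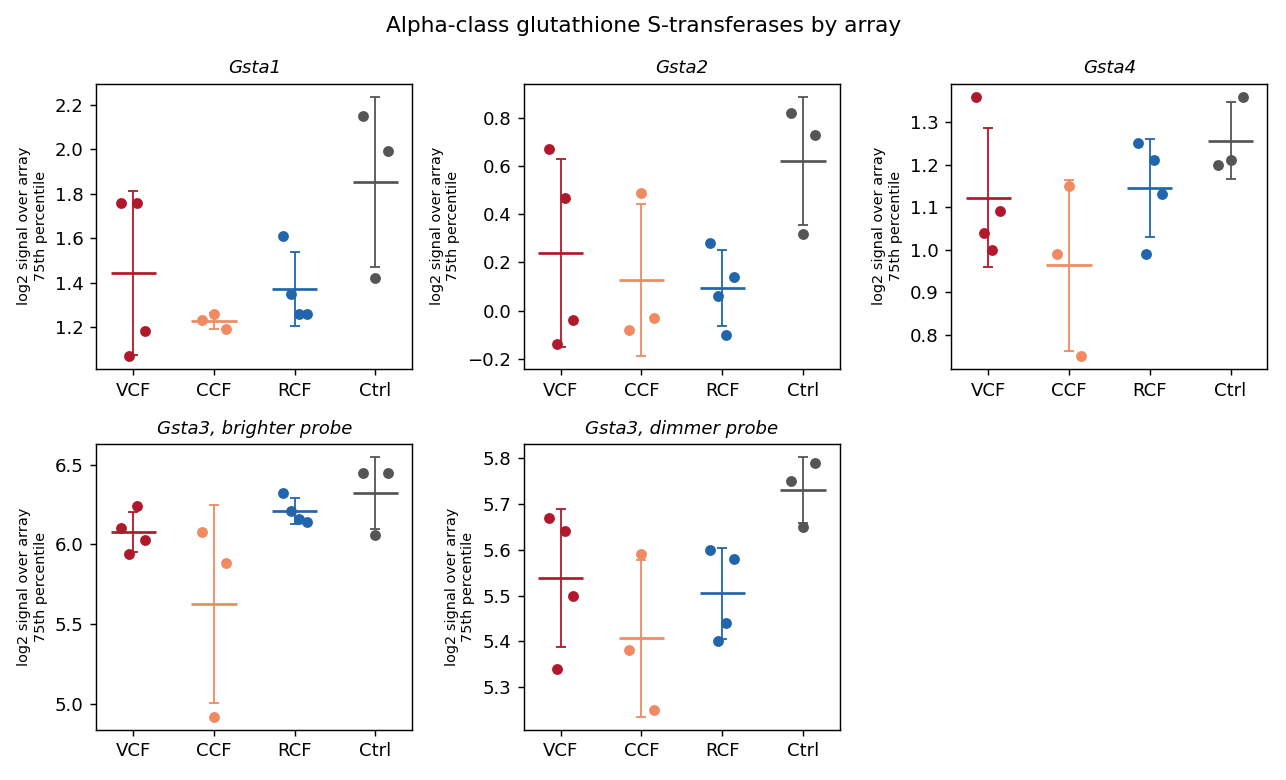
Level of the 4 alpha-class transferases by array in VCF, CCF, RCF and Ctrl lungs, with Gsta3 at both of its probes; the vertical axis is log2 signal relative to the array's 75th percentile, with its own range in each panel. Points are arrays, the long line is the group mean and the bar 1 SD; on the brighter Gsta3 probe a single CCF array lies at 4.92, far below the rest.

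Gsta3 codes for a further alpha transferase, known in the mouse for its high activity toward aflatoxin epoxide. At its brighter probe it had levels of 6.10, 5.94, 6.24 and 6.03 in VCF lungs, 6.08, 4.92 and 5.88 in CCF lungs and 6.32, 6.21, 6.16 and 6.14 in RCF lungs, against 6.45, 6.06 and 6.45 in Ctrl lungs. The CCF difference of -0.69 (SE 0.24, -1.21 to -0.17, adjusted p = 0.657) rests to a large part on CCF replicate 2, and without that array it was -0.34. At the dimmer probe that array had the highest of the CCF levels, 5.38, 5.59 and 5.25 in CCF lungs, against 5.75, 5.65 and 5.79 in Ctrl lungs. All 3 CCF arrays lay below Ctrl there, with a difference of -0.32 (SE 0.13, adjusted p = 0.728). The Gsta3 differences in VCF were -0.24 at the brighter and -0.19 at the dimmer probe, and in RCF -0.11 and -0.23. Both probes thus lay lower in each fibre group, with 95% intervals that cover 0 in VCF and RCF at both probes. Within slides 1 and 3 the CCF difference was -0.57 and -0.37 at the brighter probe.

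Gsta4, known for conjugating the lipid peroxidation product 4-hydroxynonenal, had levels of 1.36, 1.04, 1.00 and 1.09 in VCF lungs, 0.99, 1.15 and 0.75 in CCF lungs and 1.25, 0.99, 1.21 and 1.13 in RCF lungs, against 1.20, 1.21 and 1.36 in Ctrl lungs. The 3 CCF arrays lay below the 3 Ctrl arrays, and the other fibre groups overlapped with Ctrl. The CCF difference was -0.30 (SE 0.14, -0.60 to 0.01, adjusted p = 0.75), and it was -0.19 without CCF replicate 3. The differences in VCF and RCF were -0.14 and -0.11. As a class the 4 alpha genes had a median difference of -0.31 in VCF, -0.56 in CCF, -0.30 in RCF and -0.41 over all fibres.

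Cell types known for these genes are airway club cells, and liver is rich in them. The mean difference of the 4 alpha genes from the Ctrl mean ran from -0.54 to -0.04 in VCF, from -0.56 to -0.46 in CCF and from -0.38 to -0.15 in RCF, against -0.26 to 0.14 in Ctrl. Over 9 of 10 club cell markers tested, all well above background on every array, the same score ran from -0.84 to 0.70 in VCF, from -0.68 to 0.48 in CCF and from -0.54 to 0.34 in RCF, against -0.07 to 0.10 in Ctrl. The club cell list thus had no common direction, with 5 of 9 genes lower and 0 with p under 0.05 in limma in each comparison of 1 fibre with Ctrl. The liver list stood at 3.32 on CCF replicate 2 and 3.18 on RCF replicate 1, and thymus and adipose lists stood high on CCF replicate 3 and VCF replicate 1. Leaving out those 4 arrays, an alternative chosen after the data were seen, keeps CCF replicate 1 as the only CCF array. The differences over all fibres were then -0.57 for Gsta1 and -0.61 for Gsta2. The Gsta3 difference in CCF, from that 1 array, was -0.24. In whole lung, fewer cells of a type and less RNA per cell cannot be told apart.

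Alveolar macrophage markers lay lower in the fibre groups. The 10 of 11 listed genes that were tested all lay lower in each fibre group than in Ctrl, with 3 of 10 at p under 0.05 in VCF, 7 in CCF and 3 in RCF and none called after adjustment. Of all genes 54.2%, 58.7% and 50.3% lay lower in VCF, CCF and RCF, and 8.26%, 6.59% and 5.34% of all probes had such a p. Their score ran from -0.45 to -0.19 in VCF, from -0.73 to -0.40 in CCF and from -0.31 to -0.17 in RCF, against -0.10 to 0.06 in Ctrl, with no overlap between fibre and Ctrl arrays. Red blood cell markers lay the other way: all 7 of 10 that were tested were higher in each fibre group. In limma 4, 3 and 3 of the 7 had p under 0.05 in VCF, CCF and RCF, with none called after adjustment. In the higher direction 6.06%, 3.94% and 2.8% of all probes had such a p. The red blood cell score ran from 0.97 to 1.53 in VCF, from 0.22 to 1.62 in CCF and from 0.68 to 1.21 in RCF. In Ctrl it ran from -0.54 to 0.56. The part of either list in the enzyme values was not tested.

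**Figure D3:**
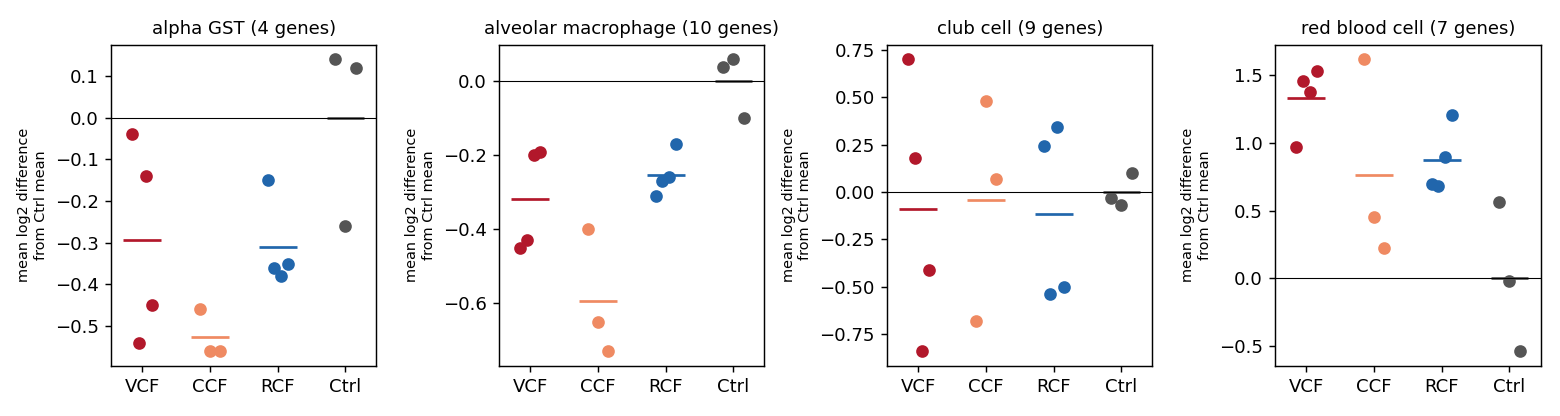
Mean log2 difference from the Ctrl mean over the alpha-class transferases and over marker genes of alveolar macrophages, club cells and red blood cells, by array in VCF, CCF, RCF and Ctrl lungs; each panel has its own vertical axis, points are arrays and lines are group means. All fibre arrays lie below Ctrl in the alveolar macrophage panel, while club cell scores spread to both sides of 0.

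The mu-class transferases are a neighbouring cluster of 7 genes. Their differences from Ctrl ran from -0.19 to 0.21 in VCF, from -0.21 to 0.16 in CCF and from -0.14 to 0.06 in RCF, with 0 of 7 at p under 0.05. Gstm3 had levels of 7.06, 6.68, 6.71 and 7.23 in VCF lungs, 6.95, 6.89 and 6.85 in CCF lungs and 7.13, 6.88, 7.03 and 7.23 in RCF lungs, against 7.12, 7.15 and 7.04 in Ctrl lungs. All 3 CCF arrays lay below Ctrl, and VCF and RCF arrays lay on both sides. The Gstm3 difference was -0.19 in VCF (SE 0.14, -0.50 to 0.13, adjusted p = 0.841), with -0.29 without VCF replicate 4 and -0.11 without VCF replicate 2, and -0.21 in CCF (SE 0.15, -0.54 to 0.12, adjusted p = 0.839). Gstm1, the most studied gene of the class, differed by -0.04, -0.08 and 0.04 in VCF, CCF and RCF at its brighter probe (95% intervals within -0.43 and 0.37), and by -0.25, -0.03 and -0.32 at its dimmer probe. The probes thus had opposite signs in RCF. Gstm2 differed by -0.05, -0.04 and 0.02 in VCF, CCF and RCF, Gstm4 by 0.06, -0.01 and 0.06, and Gstm6 by -0.11, -0.15 and -0.14, and the arrays of all 3 genes overlapped Ctrl.

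The pi class holds Gstp1, a major transferase of lung epithelium. At its brighter probe Gstp1 differed by -0.12, -0.14 and -0.06 in VCF, CCF and RCF, and at its dimmer probe by -0.25, -0.20 and -0.28, so both probes lay lower. The dimmer probe, singled out after its values were seen, had an adjusted p of 0.919 in RCF. Gstp3 had levels of -2.72, -2.62, -2.83 and -2.56 in RCF lungs, against -2.85, -2.27 and -1.99 in Ctrl lungs. Its RCF difference of -0.31 (SE 0.20, -0.74 to 0.12, adjusted p = 0.991) was -0.12 when Ctrl replicate 3 was left out, and -0.55 when Ctrl replicate 1 was. Within slides 1, 2 and 3 it was -0.73, -0.29 and 0.02.

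The theta class is known for acting on small halogenated compounds. Gstt3 had levels of 4.04, 3.82, 3.77 and 4.03 in VCF lungs, 3.72, 3.86 and 3.79 in CCF lungs and 4.10, 3.99, 4.05 and 4.12 in RCF lungs, against 3.73, 3.90 and 3.90 in Ctrl lungs. All RCF arrays lay above all Ctrl and all CCF arrays. The RCF difference from Ctrl was 0.22 (SE 0.10, -0.01 to 0.45, adjusted p = 0.955), and within slides 1, 2 and 3 it was 0.20, 0.22 and 0.31. Gstt1 differed by 0.06, 0.03 and 0.00 and Gstt2 by 0.03, -0.21 and 0.00 in VCF, CCF and RCF. The omega genes Gsto1 and Gsto2 and the zeta gene Gstz1, which also has a place in tyrosine breakdown, differed by at most 0.17 in size in any fibre group. A dim second Gsto2 probe stood well above background on 1 array of each fibre group and on 0 Ctrl arrays, and no difference is read from it.

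Glutathione peroxidases reduce peroxides with glutathione, Gpx4 those of membrane lipids, while Gpx2 is known as the epithelial form and Gpx3 as the secreted one. Against Ctrl 5 of 6 tested lay lower in VCF, 6 of 6 in CCF and 6 of 6 in RCF, with medians of -0.11, -0.18 and -0.10. Under normexp 6, 4 and 5 of them did. Gpx2 was the 1 member of all families with p under 0.05 in VCF, where 8.26% of all probes had such a p. Its levels were 3.58, 3.31, 3.05 and 3.15 in VCF lungs, 3.25, 3.44 and 3.55 in CCF lungs and 3.62, 3.3, 3.38 and 3.32 in RCF lungs, against 3.88, 3.44 and 3.60 in Ctrl lungs. VCF replicate 1 lay within the Ctrl range and the other 3 VCF arrays below it. The VCF difference was -0.36 (SE 0.15, -0.70 to -0.03, adjusted p = 0.555). Within slides 1, 2 and 3, which do not hold VCF replicate 1, it was -0.54, -0.29 and -0.57, and without Ctrl replicate 1 it was -0.24. The differences in CCF and RCF were -0.23 and -0.23, and both were -0.11 without Ctrl replicate 1.

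Gpx4 lay between 6.05 and 6.65 in VCF and RCF lungs. It had levels of 6.12, 4.91 and 6.27 in CCF lungs, against 6.38, 6.13 and 6.51 in Ctrl lungs. The low value was again on CCF replicate 2, the array that was low at the brighter Gsta3 probe. The CCF difference of Gpx4 was -0.57 (SE 0.30, -1.21 to 0.07), and it was -0.14 without that array, which also had the most outlier-flagged spots (254, against 61 to 167 on the others). Gpx1, the widespread cytosolic form, differed by -0.17, -0.11 and -0.13 in VCF, CCF and RCF, with intervals from -0.46 to 0.20, and by -0.03 in VCF without Ctrl replicate 1. The secreted Gpx3 differed by -0.08, -0.01 and -0.17 in VCF, CCF and RCF, and Gpx7 and Gpx8, known from the endoplasmic reticulum, by -0.13, -0.13 and -0.01 and by 0.06, -0.25 and -0.07. Their arrays overlapped Ctrl in each group.

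Of the peroxiredoxins 3 of 6 lay lower in VCF, 6 of 6 in CCF and 5 of 6 in RCF. Under normexp 6, 2 and 5 did, so the peroxiredoxins of CCF lungs turned under that setting. Whether the background or the spot signal it starts from moved them was not tested. Prdx6, a peroxiredoxin that also has phospholipase A2 activity and a known part in surfactant lipid turnover, had levels of 7.09, 6.94, 6.96 and 7.12 in VCF lungs, 7.17, 7.05 and 6.94 in CCF lungs and 6.88, 7.10, 7.10 and 6.93 in RCF lungs, against 7.21, 7.22 and 7.22 in Ctrl lungs. All 11 fibre arrays lay below all 3 Ctrl arrays. Prdx6 was the 1 member of 35 with that pattern (2.9%), which 0.321% of all probes had in this direction. The Ctrl arrays lay close together (SD 0.01, n = 3), while the SD over fibre arrays was 0.09 in VCF, 0.12 in CCF and 0.12 in RCF. The Prdx6 difference was -0.19 in VCF (SE 0.10, -0.42 to 0.04, adjusted p = 0.702), -0.16 in CCF (SE 0.11, adjusted p = 0.824) and -0.21 in RCF (SE 0.10, -0.44 to 0.01, adjusted p = 0.955). Over all fibres it was -0.19 (SE 0.09, -0.38 to 0.00, adjusted p = 0.765), and under normexp it was -0.08.

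The other Prdx6 probes lay lower too. At the dimmest of the 3 probes, described after its values were seen, Prdx6 levels were -1.77, -1.91, -1.96 and -2.0 in VCF lungs, -1.45, -1.77 and -1.75 in CCF lungs and -2.08, -2.02, -1.94 and -2.33 in RCF lungs, against -1.49, -1.66 and -1.37 in Ctrl lungs. VCF and RCF arrays lay below all Ctrl arrays there, and 1 CCF array did not. The differences were -0.40 in VCF (SE 0.13, adjusted p = 0.395), -0.15 in CCF (SE 0.14) and -0.59 in RCF (SE 0.13, adjusted p = 0.322). At the third probe Prdx6 differed by -0.15, -0.03 and -0.28 in VCF, CCF and RCF. Within slides 1, 2 and 3 the brightest probe gave -0.26, -0.11 and -0.27 in VCF and -0.34, -0.29 and -0.11 in RCF. In CCF lungs that probe stood at 6.94 on slide 1 and 7.17 on slide 3, against 7.22 and 7.21 in Ctrl.

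Prdx1, an Nrf2-inducible cytosolic peroxiredoxin abundant in macrophages, was low in CCF lungs alone among the group means. Its levels were 5.69, 5.61, 5.64 and 5.57 in VCF lungs, 5.38, 5.53 and 4.96 in CCF lungs and 5.56, 5.54, 5.60 and 5.58 in RCF lungs, against 5.78, 5.59 and 5.47 in Ctrl lungs. CCF arrays lay below all VCF and RCF arrays and overlapped with Ctrl. The CCF difference from Ctrl was -0.32 (SE 0.14, -0.63 to -0.02, adjusted p = 0.742), but -0.16 without CCF replicate 3 and -0.06 under normexp. Within slides 1 and 3 it was -0.51 and -0.40. The differences in VCF and RCF were 0.02 and -0.04, with intervals from -0.33 to 0.30.

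Prdx2 is known as an abundant protein of red blood cells. At its brightest probe Prdx2 differed by 0.00, -0.02 and 0.05 in VCF, CCF and RCF (intervals within -0.30 and 0.31), beside red blood cell marker medians of 1.06, 0.53 and 0.60. Its other probes gave 0.25 and 0.21 in VCF, 0.21 and 0.06 in CCF and 0.33 and 0.22 in RCF. The CCF sign was thus opposite at the brightest probe. The mitochondrial Prdx3 differed by about the same in the 3 groups, -0.11, -0.10 and -0.11, and Prdx4, of the endoplasmic reticulum, by 0.10, -0.25 and -0.13. Prdx5 differed by 0.01, -0.02 and -0.15.

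**Figure D4:**
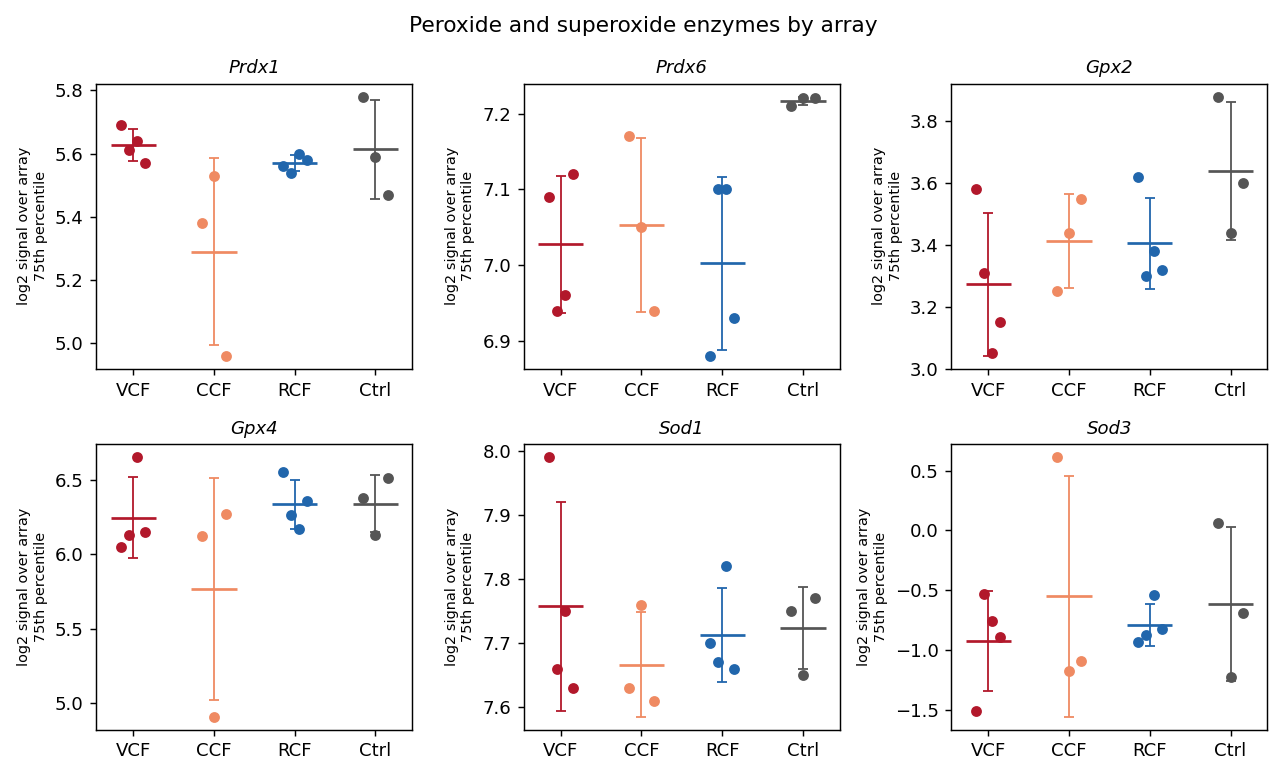
Level of 3 peroxide-reducing enzymes named above, Prdx1, Prdx6 and Gpx2, and of Gpx4, Sod1 and Sod3, by array in VCF, CCF, RCF and Ctrl lungs; the vertical axis is log2 signal relative to the array's 75th percentile, with its own range in each panel. Points are arrays, long lines group means and bars 1 SD; for Prdx6 the 3 Ctrl arrays, at 7.21 to 7.22, lie above all fibre arrays.

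Fibre and Ctrl arrays overlapped for each superoxide dismutase. Sod1, the cytosolic enzyme, had levels of 7.99, 7.66, 7.75 and 7.63 in VCF lungs, 7.63, 7.76 and 7.61 in CCF lungs and 7.70, 7.67, 7.82 and 7.66 in RCF lungs, against 7.75, 7.65 and 7.77 in Ctrl lungs. The highest array was a VCF and the lowest a CCF array, and the differences of 0.04, -0.06 and -0.01 in VCF, CCF and RCF had 95% intervals within -0.31 and 0.27. Mitochondrial Sod2, known to be induced in inflammation, differed by -0.06, -0.06 and -0.02, with intervals within -0.38 and 0.28. Sod3, the extracellular enzyme of vessel walls and lung matrix, was the most variable member, with a pooled SD of 0.59. Its levels were -1.51, -0.53, -0.76 and -0.89 in VCF lungs, 0.61, -1.17 and -1.09 in CCF lungs and -0.93, -0.87, -0.54 and -0.82 in RCF lungs, against 0.06, -1.22 and -0.69 in Ctrl lungs. A single CCF and a single Ctrl array stood high. The 95% interval of its difference ran from -1.20 to 0.59 in VCF, from -0.89 to 1.02 in CCF and from -1.07 to 0.72 in RCF. Catalase differed by -0.08, 0.06 and 0.10, with intervals within -0.41 and 0.43.

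Counted over all families, the members with unadjusted p under 0.05 in limma were 1 of 35 in VCF (2.9%, all probes 8.26%), 3 in CCF (8.6%, all probes 6.59%) and 2 in RCF (5.7%, all probes 5.34%), each lower than Ctrl. They were Gpx2 in VCF, Gsta1, Gsta3 and Prdx1 in CCF, and Gsta1 and Gsta2 in RCF. Over all fibres there were 2 (5.7%, all probes 6.66%), Gsta1 and Gsta2. Against probes of either direction these shares were near the background or below it. In the lower direction alone the background was 2.2% in VCF, 2.65% in CCF, 2.54% in RCF and 2.35% over all fibres. In the higher direction, where no member had such a p, it was 6.06%, 3.94%, 2.8% and 4.31%. Members whose arrays lay wholly below Ctrl numbered 1 in VCF (background 2.66%), 6 in CCF (17.1%, background 5.01%) and 2 in RCF (5.7%, background 3.86%). The 6 in CCF were Gsta1, Gsta4, Gstm3, Gstt2, Prdx4 and Prdx6. Gstt3 in RCF was the 1 member wholly above Ctrl (background 4.19%), with 0 in VCF (6.02%), 0 in CCF (4.75%) and 0 over all fibres (0.41%).

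Single arrays moved these counts. In VCF the count of 1 became 3 without Ctrl replicate 2 or VCF replicate 1, and 0 when Ctrl replicate 3 or VCF replicate 4 was left out. In CCF the count of 3 became 5 without VCF replicate 1 and 6 without CCF replicate 2. In RCF the count of 2 became 1 without Ctrl replicate 1 or RCF replicate 4, and 0 without Ctrl replicate 3, RCF replicate 2 or RCF replicate 3. Over all fibres the count of 2 became 1 without Ctrl replicate 1, 0 with Ctrl replicate 3 left out and 4 when CCF replicate 1 was. With the slide as a block the counts were 4 in VCF (Gpx2, Gsta1 and Gsta2 lower and Gstm7 higher), 5 in CCF (the 4 alpha genes and Prdx1), 3 in RCF (Gsta1, Gsta2 and Prdx6) and 4 over all fibres (Gpx2, Gsta1, Gsta2 and Prdx6). The share of all probes under that block was 9.47%, 6.86%, 6.96% and 7.24%, and again no member was called after adjustment. Under every other alternative tried the same held, with a smallest adjusted p of 0.241 (CCF against Ctrl without CCF replicate 1).

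**Figure D5:**
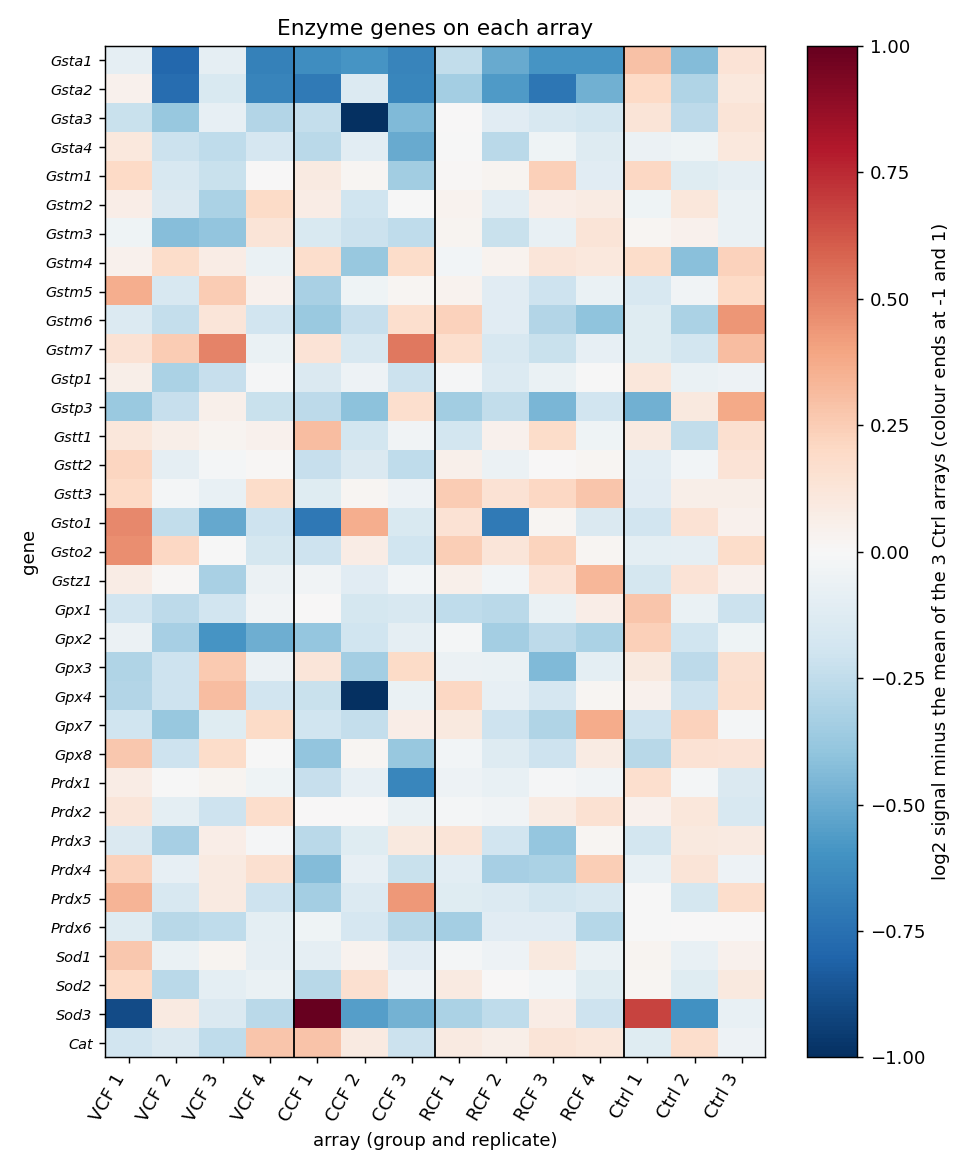
Difference of each of the 35 tested enzyme genes from the mean of the 3 Ctrl arrays, on each array from VCF, CCF, RCF and Ctrl lungs; blue is lower and red higher in log2 units, with the colour ending at -1 and 1. Gsta1 and Gsta2 are blue on most fibre arrays and on Ctrl replicate 2, and Gsta3 and Gpx4 are dark blue on CCF replicate 2.

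Between CCF and VCF lungs the members with the smallest p were Prdx1, Gstt2 and Prdx4. Of 35 members 23 lay lower in CCF (65.7%, all genes 52.8%), with a median of -0.04. Under normexp the direction turned: 14 of 35 lay lower, with a median of 0.12, beside -0.04 over all genes. In limma 3 had p under 0.05 (8.6%, all probes 5.8%, and 4.61% in the lower direction). Prdx1 was lower in CCF by a difference of -0.34 (SE 0.13, -0.62 to -0.05, adjusted p = 0.778), which was -0.18 without CCF replicate 3. Gstt2 had levels of 1.29, 1.37 and 1.26 in CCF lungs, against 1.73, 1.43, 1.5 and 1.53 in VCF lungs, a difference of -0.24 (SE 0.10, -0.47 to -0.01, adjusted p = 0.849). Prdx4 had levels of 3.05, 3.40 and 3.26 in CCF lungs, against 3.71, 3.40, 3.57 and 3.64 in VCF lungs, a difference of -0.34 (SE 0.15, -0.67 to -0.01, adjusted p = 0.855). The arrays were apart for Prdx1 and Gstt2 (2 of 35, or 5.7%, with a background of 3.99%) and touched for Prdx4. No member's CCF arrays lay wholly above VCF (background 1.28%), and none had p under 0.05 in that direction (1.19%). Within slides 1, 3 and 4 the differences were -0.68, -0.23 and -0.17 for Prdx1, -0.24, -0.14 and -0.35 for Gstt2 and -0.31, -0.34 and -0.31 for Prdx4. The count of 3 was 0 without VCF replicate 1, 1 without VCF replicate 4 or RCF replicate 1, and 5 without VCF replicate 2. With the slide as a block it was 6, where 7.37% of all probes had such a p.

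The median member difference was nearest to 0 between RCF and VCF lungs, but not under normexp, where it was 0.12 in RCF against VCF (10 of 35 lower) and 0.03 in RCF against CCF. Of 35 members 18 lay lower and 17 higher in RCF (all genes 47.4% lower), with a median difference of 0.00, and limma gave 0 with unadjusted p under 0.05 (all probes 5.29%, of which 3.75% lower and 1.54% higher). No member's arrays were apart, lower or higher (background 2.52% and 1.37%). The members with the smallest p were Gstz1, Gstm7 and Prdx4. Gstz1 had levels of 1.87, 1.79, 1.95 and 2.15 in RCF lungs, against 1.89, 1.83, 1.49 and 1.76 in VCF lungs, a difference of 0.20 (SE 0.12) that was 0.11 without VCF replicate 3. Gstm7 had -3.88, -4.21, -4.27 and -4.13 in RCF lungs, against -3.90, -3.79, -3.55 and -4.11 in VCF lungs, a difference of -0.28 (SE 0.18). Prdx4 had 3.38, 3.15, 3.17 and 3.73 in RCF lungs, against 3.71, 3.40, 3.57 and 3.64 in VCF lungs, a difference of -0.22 (SE 0.14) that was -0.35 without RCF replicate 4. All 3 pairs of groups overlapped, and under normexp the Prdx4 difference was 0.00. The 95% interval lay within 0.5 log2 units of 0 for 25 of 35 members (71.4%). The count of 0 became 1 without VCF replicate 2, VCF replicate 4 or RCF replicate 4, and 2 with the slide as a block, Gstm5 and Gstm7, both lower in RCF, where 7.35% of all probes had such a p.

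Most members lay higher in RCF than in CCF lungs. Of 35 members 23 were higher and 12 lower in RCF (34.3% lower, all genes 44.6%; under normexp 16 of 35 lower, all genes 36.6%), 2 had p under 0.05 and were higher (5.7%, all probes 7.9%, with 4.58% higher and 3.32% lower), and 6 had arrays wholly above CCF (17.1%, background 5.43%) and 0 wholly below (3.2%). Those 6 were Gsta1, Gsta3, Gstt2, Gstt3, Gstz1 and Prdx1. Gstt3, with the levels given above, was higher in RCF by 0.27 (SE 0.10, 0.05 to 0.50, adjusted p = 0.563), and the values on slides 1, 3 and 4 were 0.31, 0.33 and 0.13. Gsta3 was higher by 0.58 (SE 0.23, 0.09 to 1.07, adjusted p = 0.563), but by 0.23 without CCF replicate 2, by 0.08 within slide 3 and by 0.10 (SE 0.12) at its dimmer probe. On slide 1 its brighter probe stood at 6.32 in RCF and 5.88 in CCF, and on slide 4 at 6.21 and 4.92. Prdx1 was higher by 0.28 (SE 0.13, -0.01 to 0.56, adjusted p = 0.644), but by 0.12 without CCF replicate 3. Under normexp the Gstt3 and Prdx1 differences were 0.03 and 0.05. The count of 2 was 1 without RCF replicate 1, and 5 with the slide as a block, where 9.85% of all probes had such a p.

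The rest of the pathway was read from 6 lists of genes around these enzymes, and no listed gene was called after adjustment in limma in any comparison with Ctrl. Of 19 genes of glutathione synthesis and recycling, 12 lay lower in VCF, 12 in CCF and 17 in RCF, and those with p under 0.05 numbered 0, 0 and 2, both lower. Of all genes 54.2%, 58.7% and 50.3% lay lower, and 8.26%, 6.59% and 5.34% of all probes had such a p. The list score stood high on Ctrl replicate 1, at 0.22, while the other Ctrl arrays, at -0.10 and -0.12, lay among the fibre arrays (-0.21 to -0.02). The same array stood high in neutrophil markers, at 1.02 against -0.65 and -0.38 on the other Ctrl arrays, and the part of that in the list was not tested. Without it 9, 12 and 13 of the 19 lay lower in VCF, CCF and RCF. The smallest p over all fibres in that list belonged to Glrx, a glutaredoxin that takes glutathione off protein thiols (-0.30, SE 0.12, adjusted p = 0.705), and Ggt5, which splits extracellular glutathione conjugates (-0.28, SE 0.15). Both were -0.17 without Ctrl replicate 1. Of 12 thioredoxin and sulfiredoxin genes, 1 had such a p and was lower over all fibres, where 6.66% of all probes had one. It was Srxn1, which restores overoxidized peroxiredoxins, with -0.39 in VCF (SE 0.16), -0.54 in CCF (SE 0.17, adjusted p = 0.637), -0.28 in RCF (SE 0.16) and -0.40 over all fibres (SE 0.14, adjusted p = 0.639), or -0.22 without Ctrl replicate 1. Sesn3, a sestrin, came next with 0.15 over all fibres and 0.31 in RCF (SE 0.13).

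Among 11 of 16 oxidases that produce superoxide or peroxide and were tested, 2 had p under 0.05 over all fibres, both lower (all probes 6.66%). These were Xdh, the xanthine dehydrogenase and oxidase (-0.44, SE 0.17, adjusted p = 0.701), and the aldehyde oxidase Aox1 (-0.31, SE 0.13, adjusted p = 0.727). This list too stood high on Ctrl replicate 1, at 0.36 against -0.12 and -0.24 on the other Ctrl arrays. Without that array the count was 1, and the differences were -0.49 for Xdh and -0.31 for Aox1. Of 12 selenoprotein supply genes, none had such a p over all fibres, with Pstk at -0.24 (SE 0.13) and Eefsec at -0.14 (SE 0.08) the smallest, both needed to make or insert selenocysteine. Of the 6 microsomal transferase and leukotriene genes, none did either, with Mgst1 at -0.17 (SE 0.12) and Alox5ap at -0.33 (SE 0.27). Of 9 tested regulators, including Nfe2l2, none did over all fibres. The repressor Bach1 was at 0.70 (SE 0.48) and the coactivator Ppargc1a at 0.55 (SE 0.44), with errors too wide to place either.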

How the data were processed

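Per the file headers, Agilent Feature Extraction 10.7.3.1 made the deposited one-colour intensity of each spot and subtracted its background. The authors' deposited log2 table, an alternative here, equals log2 intensity minus 1 constant per array within 0.01 for 100% of its 27496 probes. Outlier-flagged spots were left out, spots of a probe averaged, and each array's 75th percentile (724.7 to 1345.6 intensity units) subtracted on the log2 scale. No spot was saturated, and 63.07% to 70.62% of 41174 probes stood well above background. The number of arrays limits the precision. A probe was tested if well above background on at least 3 arrays, and limma 3.58.1 (R 4.3.3) fitted the 4 groups together (10 residual and 2.39 prior degrees of freedom), with Benjamini-Hochberg adjustment. Genes were named from RefSeq accessions of the probes through a GRCm38.p6 gene table (24844 probes with 1 symbol, 0 with several, 16330 with none), and each read at its brightest probe. Array values are given for members with p under 0.05 in a comparison with Ctrl, filled to the 5 with the smallest p, and for 3 elsewhere; of each pathway list 2 genes are named. Gpx4, Sod1, Sod3 and the dimmer probes of Gstp1 and Prdx6 were added after their values were seen. Members, lists and tests were chosen with earlier results of these data known. Alternatives were normexp (offset 50), quantile normalization, the deposited table, blocks for slide or replicate number, and looser and stricter filters. Others were a fit of only the groups compared, the mean over probes and leaving out arrays. Normexp was run on median spot and background signals, so it changes the signal read as well as its background.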

Additional observations from a re-analysis of the deposited data

Results flagged for a closer look

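In RCF replicate 3 the level of Gpx3, the secreted glutathione peroxidase, was 4.49, below the other RCF arrays, which lay between 4.83 and 4.87. The gap to the nearest array was 0.891 of the range of the group, above Dixon's 95% critical value for 4 samples. It was the 1 such value among 70 groups of 4 arrays looked at, and chance alone gives about 1 in 20.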

How the results depend on the processing

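No member passed the adjusted threshold under any alternative, and the cause of the shifts below was not tested. The probes called in VCF against Ctrl, 3 in all, were 0 under normexp, 0 under quantile normalization, 6 in the authors' deposited table, 5 with no filter on dim probes, 1 with the slide as a block, 1 in a fit of only the groups compared and 0 without the 4 arrays high in marker lists of other tissues, an alternative chosen after seeing the data. Over all fibres 1 probe was called, with 2 under no filter and 0 under normexp, quantile normalization, only probes above background on all arrays, the slide as a block and without those 4 arrays. In RCF against Ctrl no filter gave 1 probe, and in RCF against VCF the slide as a block gave 1.

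The members with p under 0.05 in VCF against Ctrl, 1 in all, were 2 under quantile normalization, 4 with the slide as a block, 0 in a fit of only the groups compared, 2 without the 4 arrays and 2 with the mean over a gene's probes. The 3 in CCF against Ctrl were 1 under normexp, 5 with the slide as a block and 1 in a fit of only the groups compared. The 2 in RCF against Ctrl were 0 under normexp and 4 under quantile normalization. The 2 over all fibres were 1 under normexp, 4 with the slide as a block, 4 without the 4 arrays and 4 with the mean over probes. The 3 in CCF against VCF were 1 under normexp, 1 with no filter, 6 with the slide as a block, 0 in a fit of only the groups compared and 1 without the 4 arrays. The 0 in RCF against VCF were 2 with the slide as a block, and the 2 in RCF against CCF were 1 under normexp, 5 with the slide as a block, 1 in a fit of only the groups compared and 1 without the 4 arrays. The median member difference was 0.12 in CCF against VCF and 0.12 in RCF against VCF under normexp. It was -0.21 in CCF against Ctrl without the 4 arrays, which leaves 1 CCF array. Normexp also set Prdx4 in RCF against VCF to 0.00, against -0.22 otherwise.

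With 1 array left out in turn, the members with p under 0.05 ranged from 0 to 3 in VCF, 2 to 6 in CCF and 0 to 2 in RCF against Ctrl, 0 to 4 over all fibres, 0 to 5 in CCF against VCF, 0 to 1 in RCF against VCF and 1 to 3 in RCF against CCF. The probes called ranged from 0 to 16, 0 to 1, 0 to 10, 0 to 12, 0 to 1, 0 to 1 and 0 to 3 in the same order. The 16 and 10 came without CCF replicate 1 and the 12 without CCF replicate 3. The differences of named members kept their sign in all 378 such values and in 266 values under other alternatives, Prdx4 being the 1 exception. These members were named for a small p in the same arrays, so a kept sign says little. The sizes of their differences moved, as given above.

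Same-numbered arrays of different groups correlated between -0.37 and 0.35 in their deviations (19 pairs, median 0.05). Other-numbered arrays did so between -0.31 and 0.43 (54 pairs, median 0). Of 14 arrays 7 correlated best with an array of their own number and 11 with an array of their own slide. Number and slide partly coincide, with Ctrl, VCF and CCF replicate 3 all on slide 1, and their parts were not told apart. With the replicate block, members with p under 0.05 were 0 in VCF against Ctrl, 1 in RCF against Ctrl and 1 over all fibres, and probes called were 6 in VCF against Ctrl and 0 over all fibres. The gene name column planned as an alternative for naming was not run, since no such column was used here. With 3 or 4 arrays a group, the 95% interval lay within 0.5 log2 units of 0 for 19 to 26 of 35 members over the comparisons.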
